A study of Homo sapiens with 6 samples.

Results

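The alkaline phosphatase genes of MDA-MB-231 cells, ALPP, ALPPL2, ALPI and ALPL, were followed after silencing of the kinase NEK2. The genes were found by their symbols among the 74852 genes listed, each in a row of its own that it shared with no other symbol. All 4 were located, and 3 of them reached a mean of 10 normalized counts in the 6 libraries, the filter set on low values. ALPI did not pass this filter. ALPPL2 passed it only through its si-NEK2 level (mean 26.0, against 2.75 in si-CTRL). ALPL passed it only through its si-CTRL level (mean 30.4, against 5.30 in si-NEK2). Their ranks given below stand among the genes that this filter kept. ALPP was chosen by its large rise between si-CTRL and si-NEK2 in these same libraries, and its relatives were added by name with their values known. For this reason their differences between the groups are given as a description, with a standard error and without a test.

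MDA-MB-231 is a human line of mesenchymal triple-negative breast cancer (TNBC) cells. A first set of cells received a pool of siRNAs that silences NEK2 (si-NEK2) and the other a non-targeting pool (si-CTRL), and 3 polyA-selected libraries were sequenced for each group. The sample records give the harvest as 24 h after the second round of transfection, in both groups. The methods of the study give another time, counted from transfection without naming the round, so that these statements need not conflict. All libraries came from 1 cell line and 1 siRNA pool per group, and nothing states whether replicates were separate cultures, so that p-values measure the spread between these libraries, which may be technical.

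Alkaline phosphatases are homodimeric enzymes that remove phosphate groups from many substrates outside the cell, where a glycosylphosphatidylinositol (GPI) lipid holds them on the outer face of the plasma membrane. ALPL encodes the tissue-nonspecific enzyme of bone, liver and kidney, which breaks down pyrophosphate during mineralization and dephosphorylates the circulating form of vitamin B6. ALPP encodes the placental enzyme, made by the syncytiotrophoblast of the placenta, ALPPL2 the placental-like or germ cell enzyme, known as a marker of seminoma, and ALPI the intestinal enzyme of the enterocyte brush border. Placental and placental-like alkaline phosphatase are also made ectopically by some carcinomas.

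The tissue-restricted genes lay side by side on chromosome 2 and ALPL lay alone on chromosome 1 (hg19 coordinates of the deposited table). ALPP (GSHG0017276) spanned 233243244 to 233247597, ALPPL2 (GSHG0017277) 233271552 to 233275429 and ALPI (GSHG0017278) 233320822 to 233325455. The gap between ALPP and ALPPL2 measured 24.0 kb and held 4 listed genes, of which ECEL1P2, a pseudogene, was the only one with a symbol. The gap between ALPPL2 and ALPI measured 45.4 kb and held 1 listed gene with no symbol. ALPL (GSHG0000221) spanned 21835851 to 21904904 on chromosome 1.

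The cluster genes resembled each other closely in sequence, which matters for how reads are assigned. In the GENCODE 29 transcripts the coding parts of ALPP and ALPPL2 were identical at 97.8% of aligned bases. ALPI was identical to ALPP at 89.7% and to ALPPL2 at 89.5%, and ALPL was identical to the cluster genes at 66.1% to 66.3%. The longest run of bases that ALPP and ALPPL2 shared without a mismatch was 339, against 75 for ALPP and ALPI.

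The regions ahead of the RefSeq start sites were less alike than the coding parts. Over the 250 bases before the start, ALPP and ALPPL2 were identical at 88.9% of aligned bases, ALPP and ALPI at 70.6%, and ALPPL2 and ALPI at 71.5%. The last 150 bases before each start are shown because ALPP and ALPPL2 differed between the groups while ALPI had no read (RefSeq, GRCh38.p14, plus strand, 5′ to 3′). Capitals mark TTTAAA, a sequence that resembles a TATA box and lies where such boxes usually lie, and AGGTCA, a core element bound by many nuclear receptors.
ALPP, chr2:232378601-232378750: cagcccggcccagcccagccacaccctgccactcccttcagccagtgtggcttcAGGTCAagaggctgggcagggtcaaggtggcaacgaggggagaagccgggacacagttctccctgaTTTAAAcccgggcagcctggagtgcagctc
ALPPL2, chr2:232406694-232406843: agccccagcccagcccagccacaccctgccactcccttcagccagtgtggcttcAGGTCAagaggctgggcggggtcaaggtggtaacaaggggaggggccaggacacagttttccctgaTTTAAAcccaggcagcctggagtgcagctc
ALPI, chr2:232456003-232456152: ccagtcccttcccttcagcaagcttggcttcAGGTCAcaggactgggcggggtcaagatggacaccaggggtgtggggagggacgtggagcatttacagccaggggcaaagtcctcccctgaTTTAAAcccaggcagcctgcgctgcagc

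Motifs were searched on both strands of these 250-base regions, and a match describes letters only. TTTAAA, which is its own reverse complement, began 30 bases before the start of ALPP and ALPPL2 and 28 bases before that of ALPI, and was found in 11.3% of 35114 RefSeq promoters. AGGTCA began 96 bases before the start of ALPP and ALPPL2 and 119 bases before that of ALPI, and was found in 12.1% of promoters. The sequence CACACCC, present in 6.63% of promoters, was found 131 bases before the start of ALPP and ALPPL2 and at 155 and 82 bases in ALPI. The GC-box sequence GGGCGG, present in 42.6% of promoters, was found 83 bases before the start of ALPPL2 and 106 bases before that of ALPI, and not in this window of ALPP. No window of the cluster genes held TATAAA, present in 10.7% of promoters. RefSeq lists 3 starts for ALPL, and the second of these had the TATA motif on the minus strand at 29 bases and 4 matches to the GC-box motif, whereas none of the 3 had any of the first 3 motifs named here. The GENCODE transcript of ALPP begins at base 232378534, upstream of the RefSeq start, so the window printed for ALPP is transcribed in that model. The GENCODE transcript of ALPI begins at base 232456123, so that TTTAAA and the rest of the printed window after that base are transcribed as well.

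The libraries held 52625492 to 87454509 reads assigned to genes, and 1 read was worth 0.818 to 1.25 normalized counts, that is reads scaled by the size factor that DESeq2 gave each library. NEK2 (GSHG0002936, chromosome 1 from 211831601 to 211848972), the silenced gene, fell from 3438 ± 229 to 344.9 ± 54.4 normalized counts (mean ± SD, n = 3 libraries per group), so that 10.0% remained. The fall amounted to -3.32 on the log2 scale with a standard error of 0.12 (limma, Benjamini-Hochberg adjusted p = 1.86e-06). The first principal component, with 61.7% of the variance, separated the groups, and the second, with 16.2%, was highest in si-CTRL replicate 1. Values without si-CTRL replicate 1 are therefore given for ALPP, ALPPL2 and ALPL. The mesenchymal and luminal keratin markers expected of the line, VIM, AXL and KRT18, were abundant, whereas means of ESR1, PGR, EPCAM and CDH1 were at or below 8.22 normalized counts in each group. Of 8 tested rows of the 12 listed markers of the line, 0 were called higher and 1 lower. Over all genes tested, 8.23% were called higher and 14.3% lower. The call lower among these markers was CD44 (log2 fold change -0.76), lost without si-CTRL replicate 1 (-0.58). ERBB2, in a row shared with MIR4728, passed the filter at 0.53 and was called higher without si-CTRL replicate 1 (0.68). KRT19, at 0.55, was called higher without si-CTRL replicate 1 (0.59) or si-NEK2 replicate 3 (0.60). The summed level of 8 markers of blood, endothelial, liver, pancreatic and muscle cells was 150 to 184 normalized counts in si-CTRL and 39.5 to 69.6 in si-NEK2. In si-CTRL most of it was the row shared by IGF2, INS and INS-IGF2, the only one of 4 tested markers that was called. In si-NEK2 that row had 12.8 to 32.5 normalized counts. PECAM1, not called at -0.70, was called lower without si-NEK2 replicate 3 (-1.17). MYH7 was at 0 in all libraries. The part of other cell types in the results below was not tested.

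In si-CTRL replicates 1 to 3, 12, 10 and 8 reads of ALPP gave 15.0, 9.69 and 7.61 normalized counts. In si-NEK2 replicates 1 to 3 it had 184, 183 and 181, from 225, 203 and 170 reads. The groups were far apart, and the si-NEK2 libraries were almost equal. The mean was 10.8 ± 3.81 in si-CTRL and 183 ± 1.43 in si-NEK2 (SD, n = 3), a ratio of 17.0. The log2 fold change was 4.02 with a standard error of 0.25, on the log2(normalized count + 1) scale, on which low counts appear to change less than they do. ALPP was the gene with the second highest log2 fold change (rank 2) of 18717 tested, and the value was 4.26 without si-CTRL replicate 1. Its mean was above that of 1.67% of tested genes in si-CTRL and of 35.4% in si-NEK2. In such bulk RNA, a few cells with much ALPP and many cells with little cannot be told apart.

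ALPPL2, called ALPG in RefSeq and GENCODE, was close to the detection limit in control cells. It had 2.50, 1.94 and 3.80 normalized counts in si-CTRL replicates 1 to 3, from 2, 2 and 4 reads. In si-NEK2 replicates 1 to 3 it had 28.6, 21.7 and 27.7, from 35, 24 and 26 reads. All si-NEK2 libraries lay above all si-CTRL libraries. The mean was 2.75 ± 0.957 in si-CTRL and 26.0 ± 3.78 in si-NEK2 (SD, n = 3), a ratio of 9.48, and the log2 fold change was 2.87 with a standard error of 0.39 (rank 12 from the highest). ALPPL2 had only 8 reads in si-CTRL and 85 in si-NEK2. The ratio of summed reads, scaled by the size factors, was 9.38. Its 95% exact interval of 4.55 to 22.4 covers counting error only. For ALPP, with 30 and 598 reads, the corresponding ratio was 17.6 (12.2 to 26.3), so that the intervals of the genes overlapped. Without si-CTRL replicate 1 the log2 fold change of ALPPL2 was 2.84.

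ALPI, the intestinal gene and the last of the cluster, had 0 reads in all 6 libraries. A count of 0 allows up to 3 reads, which corresponds to 2.46 to 3.75 normalized counts depending on the library, so that lower levels were not detectable. ALPPL2 in si-CTRL had at least 2 reads in each library and 8 in all. ALPI had no log2 fold change. The si-NEK2 levels of ALPPL2, 21.7 or more, were above what a count of 0 allows for ALPI.

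ALPL moved in the opposite direction. Its si-CTRL replicates 1 to 3 had 41.2, 26.2 and 23.8 normalized counts, from 33, 27 and 25 reads. In si-NEK2 replicates 1 to 3 it had 6.55, 7.23 and 2.13, from 8, 8 and 2 reads. The highest si-NEK2 library was well below the lowest si-CTRL library. The mean was 30.4 ± 9.48 in si-CTRL and 5.30 ± 2.77 in si-NEK2 (SD, n = 3), 5.73-fold lower, so that 17.5% remained. The log2 fold change was -2.40 with a standard error of 0.46 (rank 103 from the lowest) and -2.16 without si-CTRL replicate 1, the library in which ALPL was highest. From 85 and 18 reads, the ratio of summed reads was 5.35-fold lower with a 95% exact interval of 3.19 to 9.45, for counting error only.

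Both ALPP and ALPPL2 were thus higher and ALPL lower in si-NEK2, with no overlap of the groups and with a fold change above 1.5. Among all 18717 genes tested, 8.31% were higher and 14.2% lower by this criterion, and the median log2 fold change was 0.01. Since the genes were chosen with these values known, nothing is read from this comparison.

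**Figure D1:**
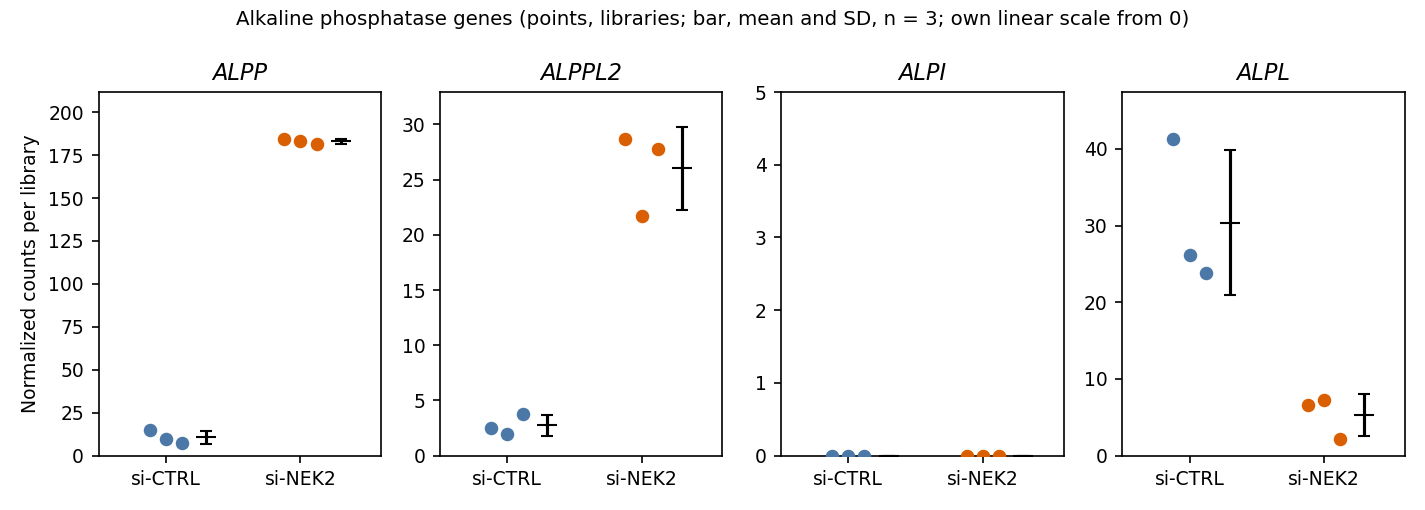
Normalized counts (linear scale from 0, own axis for each gene) of ALPP, ALPPL2, ALPI and ALPL in each si-CTRL and si-NEK2 library (points), with mean and SD of 3 libraries (bars). ALPP and ALPPL2 were higher in all si-NEK2 libraries, ALPL was lower in all of them and ALPI was at 0 in all 6.

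To compare levels between the genes, normalized counts were divided by the length of the GENCODE transcript, 2971 bases for ALPP, 2493 for ALPPL2, 2550 for ALPI and 2589 for ALPL. In si-CTRL, ALPL had the highest level of the family, 11.7 ± 3.66 normalized counts per kb (9.18 to 15.9). ALPP followed with 3.62 ± 1.28 per kb (2.56 to 5.05) and ALPPL2 with 1.10 ± 0.384 per kb (0.777 to 1.53). No library of ALPL overlapped with ALPP and none of ALPP with ALPPL2, and ALPPL2, with 2 to 4 reads in each library, stood next to ALPI with 0, so that this last step of the order rests on 8 reads in all.

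In si-NEK2 this order changed. ALPP stood first with 61.6 ± 0.483 normalized counts per kb, ALPPL2 came next with 10.4 ± 1.52 per kb (8.70 to 11.5) and ALPL followed with 2.05 ± 1.07 per kb (0.824 to 2.79). These levels did not overlap between the genes. In si-NEK2 replicate 3, ALPL had 2 reads, within the 3 that a count of 0 allows.

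The summed level of the family was 16.5 ± 4.80 normalized counts per kb in si-CTRL (13.3 to 22.0) and 74.1 ± 1.66 in si-NEK2 (73.0 to 76.0). Its composition was turned over. ALPL made up 71.0% ± 1.67 of the sum in si-CTRL (69.2% to 72.5%) and 2.76% ± 1.43 in si-NEK2 (1.13% to 3.81%). ALPP made up 21.8% ± 2.15 (19.3% to 23.1%) and then 83.2% ± 1.43 (81.6% to 84.3%). The share of ALPPL2, which rests on few reads in si-CTRL, was 7.19% ± 3.76 (4.56% to 11.5%) and then 14.1% ± 1.91 (11.9% to 15.2%), with ranges that nearly touched. The family therefore went from mostly tissue-nonspecific to mostly placental transcript in these libraries.

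**Figure D2:**
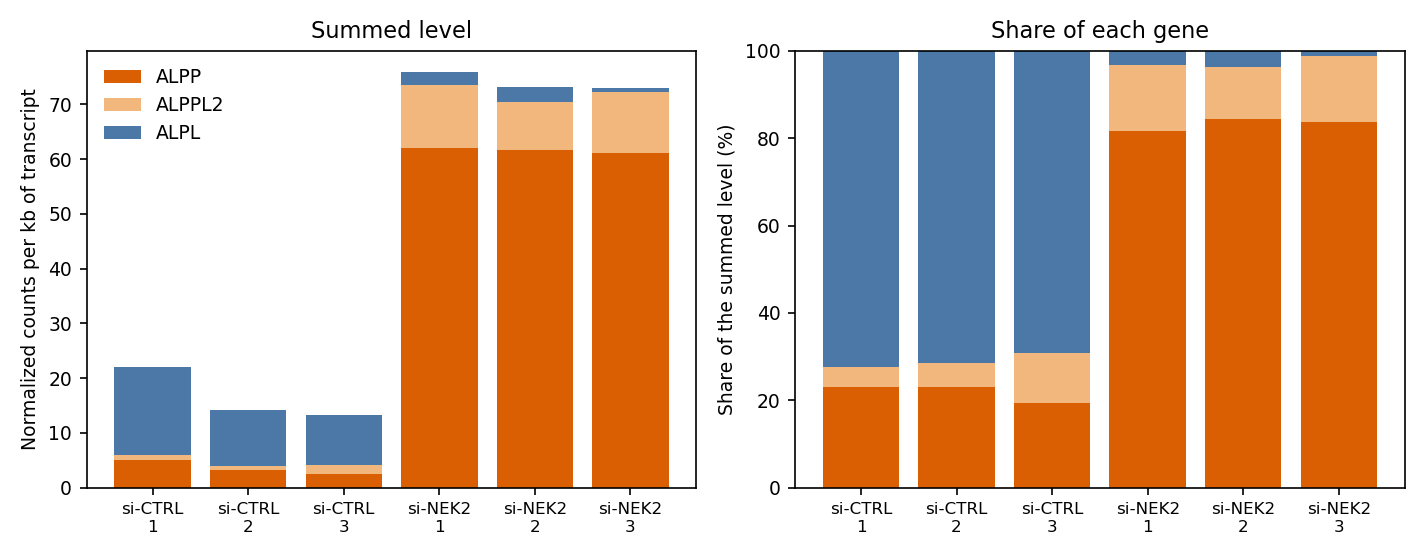
Left, stacked bars of the summed level (normalized counts per kb of transcript, from 0) of ALPP, ALPPL2 and ALPL in each library. Right, the share of each gene in that sum (%). ALPL holds 69.2% to 72.5% of the sum in si-CTRL libraries and ALPP 81.6% to 84.3% in si-NEK2 libraries. ALPI is at 0 and has no bar.

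Because ALPP and ALPPL2 are nearly identical, the part of their transcripts that a read of 100 bases cannot tell apart was measured. Of 2872 windows of 100 bases in the ALPP transcript, 379 (13.2%) occurred without a mismatch in ALPPL2, and the same 379 windows made up 15.8% of the 2394 windows of ALPPL2. All lay in the coding part, in 4 blocks, and matched no transcript of another gene. ALPI had 0 of 2451 windows and ALPL 0 of 2490 windows in common with any other gene, so that the counts of ALPL do not depend on this.

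How the counter treated reads that fit more than 1 gene is not given in the sources used here, and the values of ALPP and ALPPL2 are uncertain to this extent. In si-NEK2 the ALPPL2 reads came to 14.2% of the ALPP reads, against 13.2% of ALPP windows shared with ALPPL2. In si-CTRL they came to 26.7% of the ALPP reads. ALPPL2 took 12.4% of the reads of both genes in si-NEK2 (85 of 683, 95% Wilson interval 10.2% to 15.1%) and 21.1% in si-CTRL (8 of 38, 11.1% to 36.3%). In single libraries the share was 13.5%, 10.6% and 13.3% in si-NEK2 and 14.3%, 16.7% and 33.3% in si-CTRL. The intervals of the groups overlapped. Whether ALPPL2 reads were in part ALPP reads was not tested, since the table gives no position of reads within the gene.

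**Figure D3:**
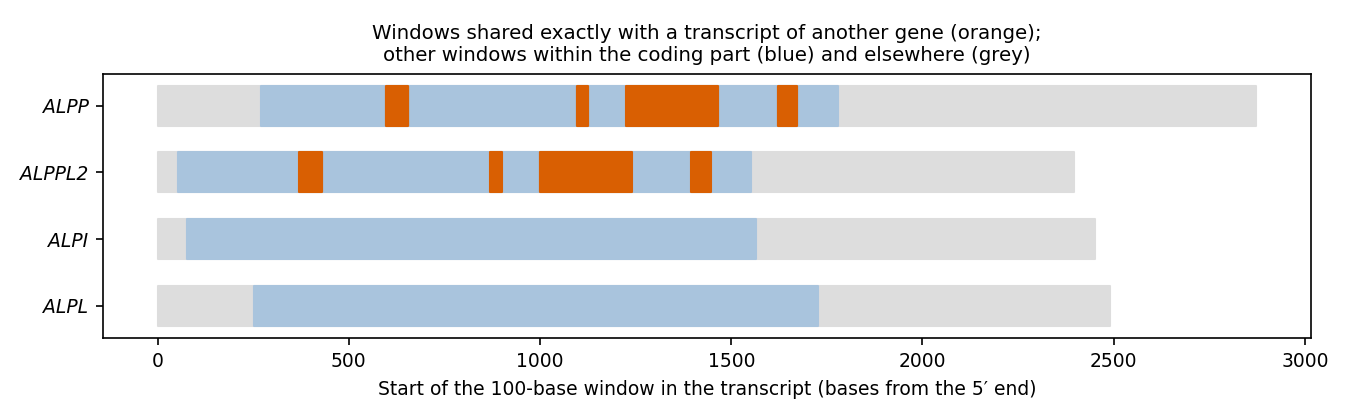
Start of each 100-base window along the transcript (bases from the 5′ end) of ALPP, ALPPL2, ALPI and ALPL. Orange marks windows that occur without a mismatch in another gene, blue the other windows within the coding part and grey the rest. The 379 orange windows of ALPP and ALPPL2 form 4 blocks in the coding part, and ALPI and ALPL have none.

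The genes around the cluster were examined to see whether the rise was shared by the region. Within 500 kb of ALPP, ALPPL2 and ALPI lay 38 other listed genes, 15 of them with a symbol, and 22 were at 0 in all libraries. Of the 10 that passed the filter, 2 were called higher and none was called lower by limma, which here means an unadjusted p-value no higher than 0.05 together with a change of 1.5-fold or more. Over all genes tested, 8.23% were called higher and 14.3% lower. The median log2 fold change of the 10 genes was 0.24. Which genes were called changed with the processing. With equal total scaling 0 were called higher and 2 lower (GIGYF2 at -0.63 and GSHG0139167 at -0.89). Without si-NEK2 replicate 2, 0 were called higher and 1 lower (GSHG0139167 at -0.98). The genes called lower were not those called higher. In these settings the latter lost their calls but stayed positive (C2orf82 at 0.51 and 0.60, GSHG0017285 at 0.64 and 0.54).

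The nearest neighbours that passed the filter were not called. GSHG0139167, a gene with no symbol between DIS3L2 and the cluster, had 25.0 ± 6.38 normalized counts in si-CTRL and 14.7 ± 5.76 in si-NEK2 (log2 fold change -0.77), and DIS3L2, an exoribonuclease gene 34.6 kb before the cluster, had a log2 fold change of 0.11 (1351 ± 131 to 1463 ± 147). ECEL1, a peptidase gene 19.1 kb after it, was at 0 in all libraries, as were the acetylcholine receptor subunits CHRND and CHRNG, the protease PRSS56, the potassium channel KCNJ13 and MIR1471. These genes could show no change. ECEL1P2, between ALPP and ALPPL2, had 0, 0 and 1.90 normalized counts in si-CTRL and 8.18, 0.904 and 2.13 in si-NEK2, with at most 10 reads in a library and groups that overlapped. NPPC, the gene of C-type natriuretic peptide, had at most 6 reads.

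Further away, C2orf82, 409.5 kb from the cluster and overlapping NGEF at its end, was called higher, from 63.1 ± 17.2 to 96.1 ± 7.36 normalized counts (log2 fold change 0.64, adjusted p = 0.0494 from limma). This call was lost without si-CTRL replicate 2 (0.39) and without si-NEK2 replicates 2 or 3 (0.60 in both cases). The other call was GSHG0017285, a gene with no symbol that lies within GIGYF2 and KCNJ13, at 0.77 with an adjusted p of 0.0801, and it was lost without si-CTRL replicates 1 (0.53) or 3 (0.71) and without si-NEK2 replicates 1 (0.80) or 2 (0.54). The values of EIF4E2, a cap-binding protein (0.38), EFHD1 (0.52), the row of MIR5001 and TIGD1 (0.34), NGEF (-0.22) and GIGYF2, a partner of EIF4E2 in translational repression (-0.50), did not pass the thresholds. EFHD1 was called higher without si-CTRL replicate 2 (0.62).

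Around ALPL 66 other genes were listed within 500 kb, 11 with a symbol, and 41 were at 0. Of the 12 that passed the filter, 4 were called higher and 1 lower, and their median log2 fold change was 0.16. Over all genes tested, 8.23% were called higher and 14.3% lower. With upper quartile or with equal total scaling, 2 of the 12 were called higher and 2 lower. CDC42, a small GTPase of the cytoskeleton, rose from 15153 ± 1052 to 25808 ± 1167 normalized counts (log2 fold change 0.77). NBPF3, the nearest called gene with a symbol at 24.5 kb, rose from 803 ± 29.8 to 1256 ± 43.0 (0.65). HSPG2, the gene of perlecan, was called higher at 0.60 and lost the call when si-CTRL replicate 1 (0.48) or 3 (0.57) was left out, and likewise without si-NEK2 replicate 1 (0.52). The remaining calls were GSHG0001831 (0.96) and GSHG0001835 (-0.98, overlapping LINC00339), which have no symbol. RAP1GAP, 17.8 kb after ALPL, was at 0.19, USP48 at 0.34, LINC00339 at 0.13, EIF4G3 at -0.20 and ECE1 at -0.25, none of them past the thresholds. No neighbour of ALPL with a symbol was called lower.

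**Figure D4:**
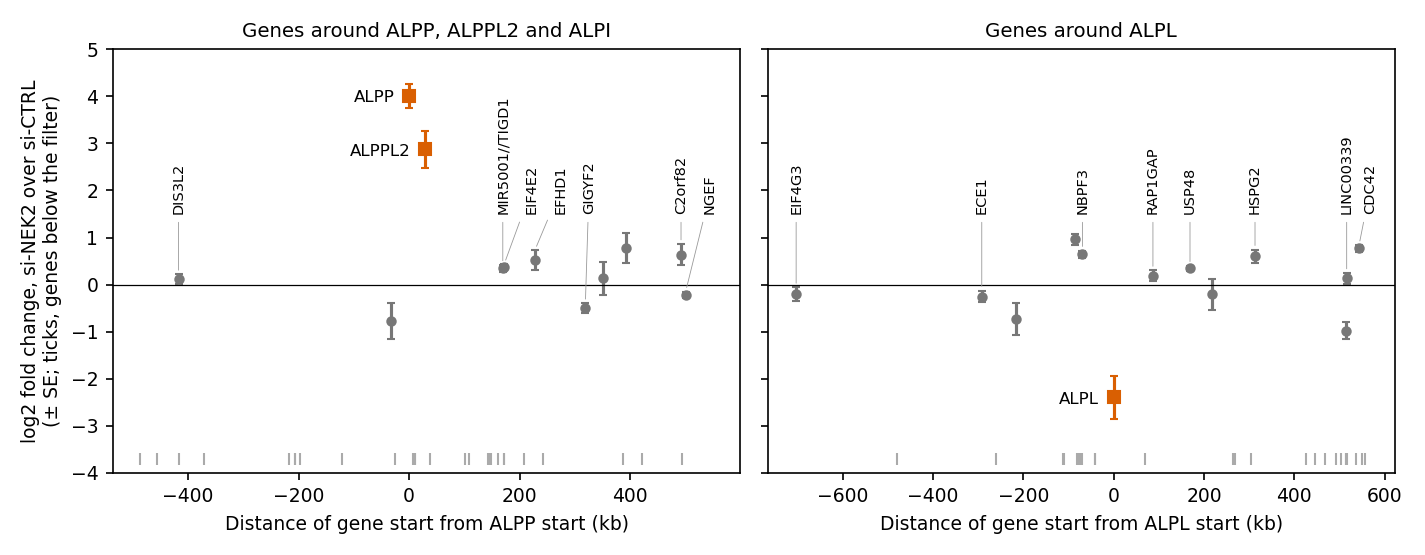
Log2 fold change (si-NEK2 over si-CTRL, ± standard error) against the distance of the gene start from the start of ALPP (left) or ALPL (right), in kb. Orange squares are alkaline phosphatase genes, grey points neighbours that passed the filter and ticks at the bottom genes below it. ALPP at 4.02, ALPPL2 at 2.87 and ALPL at -2.40 lie apart from the neighbours, which lie between -0.98 and 0.96. The alkaline phosphatase genes were chosen with these values known, so nothing is read from this distance.

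The substrates of the enzymes were considered next. Over all genes tested, 8.23% were called higher and 14.3% lower, and the counts of this and all following lists stand beside these shares. Of 15 genes that make, carry or use pyrophosphate and phosphate, 12 were tested, 2 were called higher, 2 lower and 8 were not called, with a median log2 fold change of -0.11. SMPD3, a neutral sphingomyelinase needed for bone mineralization, rose from 16.0 ± 5.86 to 96.1 ± 16.5 normalized counts (log2 fold change 2.56, adjusted p = 0.000261 from limma). PPA1, the cytosolic pyrophosphatase, rose at 0.69, a call that was lost without si-CTRL replicate 1 (0.55). NT5E, the ectonucleotidase CD73 that forms adenosine and phosphate from AMP and is itself GPI-anchored, fell from 10168 ± 2217 to 2631 ± 134 (-1.93). SLC20A1, a sodium-phosphate cotransporter, fell from 24348 ± 2601 to 9259 ± 552 (-1.39). ANKH, a pyrophosphate exporter (-0.56), XPR1, a phosphate exporter (-0.07), and SPP1, osteopontin (-0.12), were not called.

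Of 4 genes of vitamin B6 salvage, 1 was called higher, none lower, and the median was 0.25. PDXK, pyridoxal kinase, rose from 2632 ± 301 to 4083 ± 154 normalized counts (log2 fold change 0.64), a call that was lost without si-CTRL replicate 1 (0.54). PROSC, a binding protein of pyridoxal phosphate, was at 0.15 and PDXP, its phosphatase, in a row shared with SH3BP1, at -0.46.

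Acid phosphatases, which act on the same kind of bond by another mechanism, gave 1 call in each direction among 5 of 7 genes tested, with a median of 0.18. ACPP, the prostatic acid phosphatase, fell from 149 ± 14.4 to 30.3 ± 6.43 normalized counts (log2 fold change -2.28). PXYLP1 (listed as ACPL2) rose from 171 ± 11.7 to 269.5 ± 16.8 (0.65). ACP1 (0.43), ACP2 (0.18) and ACP6 (-0.02) were not called.

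Among 10 regulators of bone formation, where ALPL is an early marker, 7 were tested, 2 were called higher, none lower, and the median was -0.05. BMP4, a bone morphogenetic protein, rose from 105.6 ± 9.91 to 204.5 ± 8.0 normalized counts (log2 fold change 0.95, adjusted p = 0.000581 from limma). MSX2, a homeobox factor induced by such ligands, rose from 451 ± 54.0 to 834 ± 40.6 (0.89). ATF4 (0.01), SMAD5 (-0.05) and SMAD1 (-0.27) were not called.

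The machinery of the GPI anchor was measured in full, with all 30 listed genes past the filter. It gave 3 calls higher, 3 lower and 24 genes not called, with a median log2 fold change of 0.09. PIGW, which acylates inositol early in the pathway, fell from 3236 ± 586 to 1261 ± 54.5 normalized counts (-1.34). MPDU1, needed for use of dolichol-phosphate-mannose, was called lower at -0.68, and PIGF, a partner of the ethanolamine phosphate transferases, at -0.72, which was lost without si-CTRL replicate 3 (-0.55).

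The higher calls of this group were all lost without si-CTRL replicate 1. They were the row of PIGY and PYURF (0.74), PIGB, a mannosyltransferase (0.66), and PIGH, a subunit of the first transferase (0.60). Without that library their log2 fold changes were 0.41, 0.58 and 0.44 and none of these was called. PGAP3, not called at 0.56, was called higher without si-CTRL replicate 1 (0.67) and without si-NEK2 replicates 1 (0.59) or 2 (0.65). PIGN, at 0.49, was called higher without si-CTRL replicate 3 (0.60). The transamidase subunits GPAA1 (-0.27), PIGS (0.21) and PIGT, in a row shared with MIR6812 (-0.07), which attach the anchor to the protein, were not called.

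Of 22 tested genes of other GPI-anchored proteins, 6 were called lower, 2 higher and 14 not, with a median of -0.33. These were 27.3% lower and 9.09% higher, against 14.3% and 8.23% of all genes tested. VNN1, the pantetheinase vanin-1, fell from 371 ± 54.8 to 56.8 ± 9.13 normalized counts (log2 fold change -2.69). PLAUR, the urokinase receptor, fell from 9065 ± 1165 to 2047 ± 103 (-2.14), and CD59, an inhibitor of complement, from 93463 ± 10141 to 25416 ± 1147 (-1.87). NT5E, given above, is part of both lists.

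EFNA5, an ephrin, fell at -0.93 and THY1 at -0.78, from 4544 ± 373 to 2643 ± 93.4. The 2 genes called higher were EFNA1 (0.72) and CD109 (0.60), the latter lost in 7 of 15 alternatives. PRNP, the prion protein (-0.32), LY6E (0.15) and LY6K (-0.58) were not called, although LY6K was called lower in 7 alternatives. With upper quartile or equal total scaling, LY6K, CD24 and ULBP2 were called lower as well, which made 9 calls lower and 1 higher.

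Genes of the tissues in which ALPP, ALPPL2 and ALPI are normally made were listed as well. Of 27 genes of the trophoblast, 26 were found, 7 were at 0 in all libraries and 16 were tested. Of these, 3 were called higher, 5 lower and 8 not, with a median log2 fold change of -0.29. CGA, the alpha subunit of chorionic gonadotropin, rose from 4.23 ± 0.671 to 17.1 ± 2.59 normalized counts (1.79, adjusted p = 0.00467 from limma). Its mean over all libraries, 10.6, was just above the filter on low values. The si-CTRL level of CGA lay below that filter, so CGA was tested only because of its si-NEK2 level. Under the higher filter of the alternatives CGA was not tested. CGB3, the beta subunit (listed as CGB), was called higher at 1.12 but with an adjusted p of 0.0599, and its near-identical copies make its count uncertain. That call was lost without si-CTRL replicates 1 (0.94) or 3 (0.85) and without si-NEK2 replicates 2 (0.96) or 3 (1.13). KRT7, a keratin of simple epithelia, was the remaining higher call at 0.62, and it was lost without si-CTRL replicate 1 (0.51) and without si-NEK2 replicates 1 (0.50) or 2 (0.55).

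The lower calls of the trophoblast genes included secreted placental proteins. PAPPA2, a metalloproteinase, fell from 46.4 ± 22.0 to 11.9 ± 4.02 normalized counts (log2 fold change -1.78), and PAPPA, its paralog, fell at -0.71. The pregnancy-specific glycoproteins PSG1 (-1.37) and PSG4 (from 1926 ± 195 to 959 ± 21.1) also fell, and belong to a family whose members are nearly identical, so that their reads are uncertain in the same way. The syncytin gene ERVFRD-1, HSD3B1, CSH1, LGALS13, VGLL1, ELF5 and KISS1 were at 0 in all libraries. TFPI2 (-0.48), PEG10 (-0.20) and TEAD4 (-0.29), the most abundant of those not called, did not pass the thresholds.

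Of 23 enterocyte genes only 4 were tested and 8 were at 0 in all libraries, among them CDX1 and CDX2, regulators of intestinal genes, and SI, sucrase-isomaltase. KLF5 was called higher (log2 fold change 0.69, lost without si-CTRL replicate 2 at 0.56) and ANPEP, aminopeptidase N, lower (-0.62, lost without si-CTRL replicate 1 at -0.51), and the median was -0.16. KLF4 (-0.53) and DPP4 (0.21) were not called.

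Of 12 genes of germ cell tumours only 3 were tested, with 1 call in each direction. PRDM1 rose from 60.0 ± 11.1 to 115 ± 5.24 normalized counts (log2 fold change 0.94). TFAP2C, which also stands among the trophoblast genes, fell from 739 ± 93.0 to 476 ± 41.0 (-0.63), a call lost without si-CTRL replicate 1 (-0.53) or si-NEK2 replicate 2 (-0.56). NANOS3 was at -0.05. KIT, DPPA3, DPPA4 and PRAME were at 0 in all libraries.

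**Figure D5:**
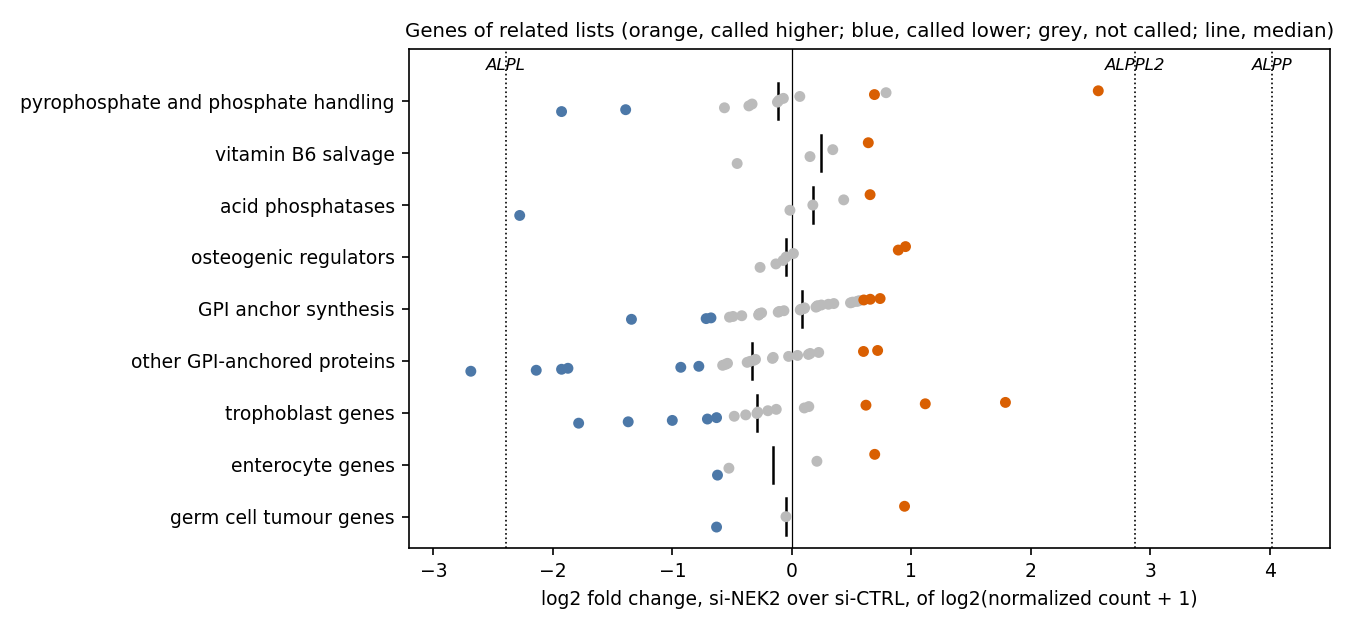
Log2 fold change (si-NEK2 over si-CTRL, log2(normalized count + 1) scale) of each tested gene in 9 related lists. Orange points were called higher, blue points lower and grey points not called, black bars are medians and dotted lines the values of ALPL (-2.40), ALPPL2 (2.87) and ALPP (4.02). No gene of these lists reaches the values of ALPPL2 or ALPP, and SMPD3 at 2.56 comes nearest from below. Since ALPP was chosen by its rise and its relatives with their values known, this is a description only.

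The genes whose profile over the 6 libraries was nearest to that of ALPP were found among 12915 genes with a symbol and a mean of at least 50 normalized counts, by the root mean square difference of centred log2 values. This measure uses the contrast in which ALPP was chosen and is a description. The nearest was CHRNB2, a subunit of neuronal acetylcholine receptors (difference 0.39), with 5.0, 7.75 and 5.70 normalized counts in si-CTRL and 97.4, 88.6 and 107 in si-NEK2. It was followed by NEDD9, a scaffold of focal adhesions (0.58), C11orf86 (0.60), PRSS35 (0.65) and SYP, the synaptic vesicle protein synaptophysin (0.69). Group means of PRSS35 were 27.0 ± 5.52 and 208.5 ± 9.44, and those of SYP 23.6 ± 6.51 and 199 ± 3.43.

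For ALPL the nearest profile was that of the row shared by IGF2, INS and INS-IGF2 (difference 0.27), with 140, 110 and 137 normalized counts in si-CTRL and 22.9, 32.5 and 12.8 in si-NEK2. Like ALPL, this row and those named next were lowest in si-NEK2 replicate 3, which is part of the profile by which they were found. OLFML3, an extracellular glycoprotein (0.34), HAND2, a mesenchymal transcription factor (0.35), CSF1R, the receptor of macrophage colony-stimulating factor (0.36), and BEND4 (0.41) came next. HAND2 went from 335 ± 21.6 to 84.3 ± 21.3 normalized counts and CSF1R from 99.5 ± 17.4 to 21.4 ± 7.04.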

How the data were processed

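PolyA-enriched RNA of 3 si-CTRL and 3 si-NEK2 libraries of MDA-MB-231 cells was analysed. The authors deposited a signal for each gene, its reads scaled by DESeq2 size factors, annotated with FAST DB in hg19. Per the labels, STAR 2.4.0, SAMtools, Picard and DESeq2 were used on stranded libraries, and the counter and its strand setting are not given in the sources used here, and genes that overlap could share reads. Values were whole multiples of 1 read in 100% of cases (tolerance 0.01 reads), which gave back the reads. The methods state single-end reads of 100 bases whereas the results text of the study speaks of paired ends.

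Genes with a mean of at least 10 (18717) were tested with limma 3.58.1 (lmFit, eBayes with a trend, R 4.3.3) on log2(value + 1), without covariates. A call needed an unadjusted p-value no higher than 0.05 and a change of 1.5-fold or more, as in the study. Members and lists were chosen with earlier results of these data known. The text names all members, the neighbours with a symbol that passed the filter, the 5 nearest profiles, and of each list up to 6 called genes and 3 abundant genes not called, some of which are not reported here. Genes beyond this rule were added after their values were seen: EFNA1, CD109, KRT7, the listed genes and neighbours at or near 0, some neighbours without a symbol, and some genes that gained a call under an alternative. Identity was computed with Biopython 1.88 on GENCODE 29 transcripts, and promoters came from RefSeq. Alternatives were pseudocounts of 0.1 and 5, no filter or a mean of at least 50, upper quartile and equal total scaling, edgeR 4.0.16, DESeq2 1.42.0, the replicate number as a block and each library left out. The fits were tested on simulated data.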

Additional observations from a re-analysis of the deposited data

How the results depend on the processing

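ALPP and ALPPL2 were higher and ALPL lower in si-NEK2 under every alternative that gave a value. For ALPP the log2 fold change was 3.60 with a pseudocount of 5. For ALPPL2 it was 3.24 with a pseudocount of 0.1, 2.00 with a pseudocount of 5, 3.17 in edgeR and 3.22 in DESeq2, with 2 to 4 reads in each si-CTRL library. With 1 library left out, values lay between 3.81 and 4.26 for ALPP, 2.71 and 3.07 for ALPPL2 and -2.65 and -1.95 for ALPL. ALPPL2 and ALPL fell below a mean of 50 and had no value under that filter, and ALPI had none in any.

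Of the lists, vitamin B6 salvage gave 0 calls with upper quartile scaling and 0 to 1 with 1 library left out, and acid phosphatases 1 with equal total scaling. Trophoblast genes gave 5 calls at a mean of at least 50 and 5 to 9 with 1 library left out, enterocyte genes 4 without a filter and 1 to 3, and germ cell tumour genes 4 without a filter and 1 to 2. Near ALPP, ALPPL2 and ALPI there were 0 calls with upper quartile scaling, 1 in edgeR and 1 to 2 with 1 library left out. Equal total scaling moved the median log2 fold change of all genes from 0.01 to -0.11, and the share of calls that were higher from 36.6% to 21.3%. It ended the calls of NBPF3, HSPG2, PPA1, KRT7, KLF5, PIGH, PIGB, C2orf82, GSHG0017285, PDXK, PXYLP1 and CD109, and upper quartile scaling ended those of NBPF3, HSPG2, KRT7, PIGH, C2orf82, GSHG0017285, PDXK and CD109. Calls gained, all lower, were those of ANKH, LY6K, CD24, ULBP2, KLF4 and PIGV in both scalings, and of PIGO, TFPI2, EGFR, GIGYF2, GSHG0139167 and the row of PDXP with equal total scaling. GSHG0034112 near ALPL was also gained in both. Both edgeR and DESeq2 ended those of HSPG2, PIGH and CD109, DESeq2 that of CGB3 and edgeR that of GSHG0017285, while both called LY6K lower. Counts of all calls lay between 3913 and 4436 with 1 library left out, and were 5362 of 33327 genes without a filter.

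The replicate numbers did not pair the libraries (correlations of deviations -0.09, 0.05 and -0.15, and 0 libraries correlated best with their own number). With the replicate block the log2 fold changes were 4.02 for ALPP, 2.87 for ALPPL2 and -2.40 for ALPL, and 4084 genes were called instead of 4213.

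Depth limits ALPI in all libraries, ALPPL2 in si-CTRL and ALPL in si-NEK2, where counts of 0 to 8 reads leave the level and the fold change imprecise. Reads shared by ALPP and ALPPL2 could not be traced.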
